A study of Mus musculus with 6 samples.

Results

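Duox2, Duoxa2, Nox1, Noxo1, Nos2 and Gpx2 encode enzymes that make reactive oxygen or nitric oxide in the intestinal epithelium, the partner proteins these enzymes need, and an epithelial enzyme that removes peroxide. The 6 genes were chosen by name as rows of the deposited expression table, which holds 23402 genes in FPKM (read fragments counted per kilobase of RNA and per 1e6 mapped fragments). All 6 members had a mean of at least 1 FPKM over the libraries and were among the 12695 genes tested.

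RNA from intact pieces of terminal ileum, where the small intestine ends, was sequenced from 6 mice aged 6 weeks, with 1 library for each mouse. The 3 libraries labelled KO came from Il17rafl/fl;Atoh1-cre+ mice, and the 3 labelled WT from their Il17rafl/fl;Atoh1-cre- littermates, which carry the same floxed alleles and no Cre. Every mouse in both groups had been given dextran sodium sulfate (DSS), an agent that injures the gut epithelium, in the drinking water and was sampled on day 6. The Atoh1 promoter is active in the secretory lineage (goblet, Paneth and enteroendocrine cells), so absorptive enterocytes and immune cells outside that lineage are expected to keep the receptor, and no mice without DSS were analysed here. The comparison asks how the oxidant enzymes stand when the interleukin-17 receptor is targeted in secretory cells.

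DUOX2 sits on the apical membrane of enterocytes and releases hydrogen peroxide into the lumen, and DUOXA2 is the factor that lets it mature and reach the membrane. NOX1 makes superoxide and works with the organizer NOXO1 and the activator NOXA1, while inducible nitric oxide synthase (NOS2) makes nitric oxide from arginine. GPX2 is a glutathione peroxidase of the gut epithelium that reduces hydroperoxides. Bacterial signals and cytokines, interleukin-17 and interleukin-22 among them, are known inducers of several of these genes.

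Depth, estimated from the spacing of low values, was 8.8 to 10.6 (in units of 1e6 fragments) per library, and 16317 to 16547 genes were listed above 0. Il17ra (chromosome 6) was not lower in the libraries labelled KO, at 7.93, 8.36 and 6.07 FPKM, against 6.04, 5.91 and 6.53 FPKM in WT-labelled libraries. This gene gives no check of the genotype labels, and every direction is stated for libraries by their label. Genes of ileal bile acid uptake were uneven, and Fabp6 and Slc10a2 were low in most libraries. Fabp6, the bile acid binding protein, was listed between 0.316 and 2.41 FPKM in 5 libraries and at 9.79 FPKM in WT 3, and the apical transporter Slc10a2 between 0.0669 and 1.94 FPKM, while the basolateral transporter genes Slc51a and Slc51b were at 103 to 136 FPKM and 53.7 to 88.9 FPKM. Gata4, a transcription factor of the proximal small intestine, was at 37.1 to 49.3 FPKM, and the lactase gene Lct at 188 to 419 FPKM. Fabp6 and Slc10a2 were thus low, and Gata4 and Lct high, in tissue labelled terminal ileum. The segment sampled is known from the label alone and was not tested. Xist was high in KO 2, KO 3 and WT 3 (148 to 177 FPKM) and under 1 FPKM in KO 1, WT 1 and WT 2, so both groups held both sexes. B cell genes were high in KO 1 and KO 2 alone, with a summed level over 8 markers of 73.7, 89.6 and 11.3 FPKM in KO-labelled libraries, against 16.1, 12.8 and 7.42 FPKM in WT-labelled libraries.

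None of the 6 members passed the test between the groups, and in all 6 the groups overlapped. By limma with Benjamini-Hochberg adjustment over all genes, each member had an adjusted p = 0.998, and 0% of 12695 genes were called. At an unadjusted p under 0.05 there were 459 genes (3.62%, of which 2.54% higher and 1.07% lower in KO-labelled libraries), none of them a member. The groups did not overlap in 8.37% of genes, with all KO values above all WT values in 5.77% and below them in 2.6%. The estimates were below 0 for 5 of 6 members, with a median log2 fold change of -0.34, where 41.6% of all tested genes were below 0 and their median was 0.03. Of these 5 members, Noxo1, Gpx2 and Nos2 changed sign under 6, 3 and 1 of 19 alternative settings. Only Duox2 and Duoxa2 stayed below 0 throughout. An exact two-sided permutation test of 3 against 3 animals cannot go below p = 0.1.

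**Figure D1:**
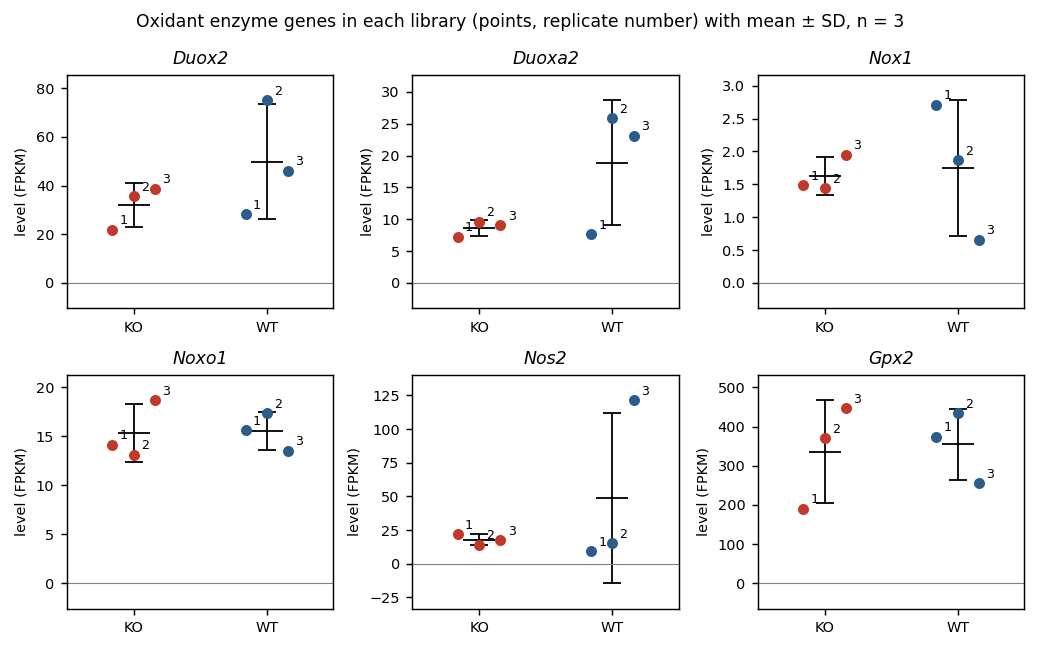
Level in FPKM of each of the 6 genes in the libraries labelled KO (red, left) and WT (blue, right), with the replicate number beside each point and bars for the mean ± SD (n = 3). Duoxa2 was 7.23 to 9.60 FPKM in the libraries labelled KO, with WT 1 at that level and WT 2 and WT 3 above 23 FPKM, and Nos2 stood at 121 FPKM in WT 3.

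Gpx2 had the highest level per length of the 6 in every library and Nox1 the lowest. Gpx2 averaged 345 FPKM over the 6 libraries, Duox2 41.0, Nos2 33.3, Noxo1 15.4, Duoxa2 13.8 and Nox1 1.69 FPKM. The order of the 4 genes between them changed from library to library. Duox2 exceeded Nos2 in KO 2, KO 3, WT 1 and WT 2, and Nos2 exceeded Duox2 in KO 1 and WT 3, so these neighbours did not differ beyond their spread.

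Duox2 and Duoxa2 were high in the same libraries, WT 2 and WT 3. Duox2 stood at 21.9, 35.5 and 38.7 FPKM in KO-labelled libraries, against 28.3, 75.1 and 46.1 FPKM in WT-labelled libraries. WT 1 lay inside the KO range, and WT 2 was far above the highest KO value. The means were 32.0 ± 8.89 FPKM and 49.9 ± 23.6 FPKM (SD, n = 3 each), a log2 fold change of -0.56 (SE 0.34, 95% interval -1.35 to 0.24, exact permutation p = 0.4). Duoxa2 stood at 7.23, 9.60 and 9.07 FPKM in KO-labelled libraries, against 7.69, 25.9 and 23.1 FPKM in WT-labelled libraries. All 3 KO values were close together, WT 1 was among them, and the other WT libraries were well above. The means were 8.64 ± 1.24 FPKM and 18.9 ± 9.81 FPKM (SD, n = 3 each), a log2 fold change of -0.89 (SE 0.39, 95% interval -1.80 to 0.01, unadjusted p = 0.0524 by limma, exact permutation p = 0.3). In whole tissue, fewer cells that express a gene and less RNA per cell cannot be told apart.

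The estimate of each gene of the pair moved with single animals but stayed below 0. Without WT 2 the log2 fold change of Duox2 was -0.21, and without WT 1 it was -0.90. For Duoxa2 it was -0.60 without WT 2 and -1.41 without WT 1 (limma adjusted p = 0.111). The ratio of the level of Duoxa2 to that of Duox2 was 0.330, 0.270 and 0.235 in KO-labelled libraries, against 0.271, 0.344 and 0.502 in WT-labelled libraries (exact two-sided permutation p = 0.2). The ratio was highest in WT 3, and the groups overlapped.

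Duox2 (chromosome 2, 122279247 to 122298449, GRCm38, GENCODE M21) and Duoxa2 (122298900 to 122302885) lie head to head on opposite strands, with 450 bases between them. The RefSeq starts are 672 bases apart. Since the genes neighbour each other and were high in the same libraries, the 250 bases before each RefSeq start are shown (build GRCm38.p6, 5′ to 3′ on the strand of the gene). The Duoxa2 window lies wholly between the genes. Of the Duox2 window, 222 bases lie inside the GENCODE gene and 28 between the genes, so it does not describe the sequence before the GENCODE start. Capitals mark matches to the motifs named next.
Duox2 chr2:122298228-122298477 (minus strand): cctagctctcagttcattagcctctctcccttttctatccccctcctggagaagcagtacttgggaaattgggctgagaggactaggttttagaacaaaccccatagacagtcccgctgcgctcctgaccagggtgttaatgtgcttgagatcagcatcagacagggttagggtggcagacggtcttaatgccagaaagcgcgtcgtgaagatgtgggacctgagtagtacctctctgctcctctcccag
Duoxa2 chr2:122298650-122298899 (plus strand): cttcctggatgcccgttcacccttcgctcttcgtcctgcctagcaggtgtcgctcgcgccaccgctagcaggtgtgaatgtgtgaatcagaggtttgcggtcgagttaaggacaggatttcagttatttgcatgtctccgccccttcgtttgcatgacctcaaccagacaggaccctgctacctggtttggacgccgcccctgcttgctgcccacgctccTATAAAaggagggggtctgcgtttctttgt

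The motifs searched on both strands were a TATA box (TATAAA), STAT (TTCNNNGAA), NF-kB (GGGAN followed by TTTCC), the antioxidant response element core (TGACNNNGC), CDX (TTTATG) and 2 GATA forms (AGATAA and TGATAA). The Duoxa2 window held TATAAA 30 to 25 bases before the start, a word found in 12.4% of 32851 promoter windows of this length. The Duox2 window, mostly inside the GENCODE gene, held none of the 7 words. The STAT word was found in 7.02% of all windows, the NF-kB word in 0.356%, the antioxidant core in 10.2% and AGATAA in 9.99%, and none of these in the windows of Duox2, Duoxa2, Nox1, Noxo1 or Gpx2. A match or its absence describes these letters only.

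The genes whose pattern over the 6 libraries was most like those of Duox2 and Duoxa2 were led by the bactericidal lectins Reg3g and Reg3b. Likeness was the root mean square difference between log2(FPKM + 1) profiles after each gene's mean was removed, over 6 libraries and 11957 genes. Reg3g was nearest to Duox2 (0.19), followed by the glycosyltransferase gene B3gnt7 (0.21) and Tmem89 (0.22). Reg3b was nearest to Duoxa2 (0.16), followed by Tifa (0.20), an adaptor in the sensing of bacterial sugars, and Tmem89 (0.26). Duoxa2 was 12th nearest to Duox2, with a difference of 0.32. Tifa stood at 23.2, 26.8 and 25.5 FPKM in KO-labelled libraries, against 27.6, 80.3 and 93.7 FPKM in WT-labelled libraries. Reg3b stood at 3141, 4099 and 3504 FPKM in KO-labelled libraries, against 3874, 9184 and 7520 FPKM in WT-labelled libraries. In each of these genes WT 2 and WT 3 stood above the other 4 libraries.

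**Figure D2:**
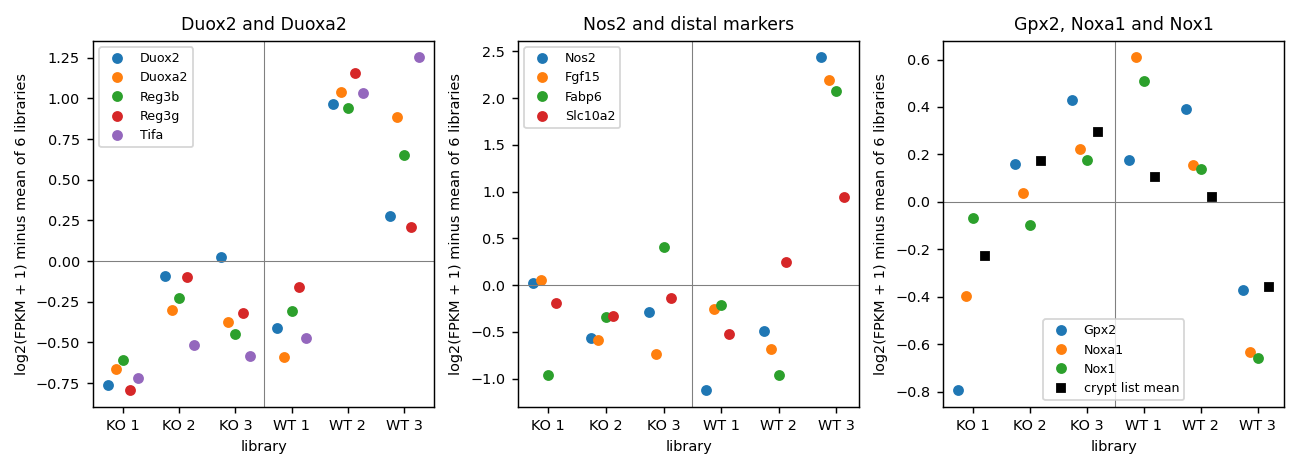
Level on the log2(FPKM + 1) scale, minus each gene's mean over the 6 libraries, in the libraries labelled KO (left of the line) and WT (right). Duox2, Duoxa2, Reg3b, Reg3g and Tifa were highest in WT 2 or WT 3, Nos2 and Fgf15 in WT 3, and Gpx2 was lowest in KO 1 and WT 3, as was the mean of the crypt gene list.

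Nos2 (chromosome 11, 78920787 to 78960254) was set apart by 1 library. It stood at 22.02, 14.3 and 17.5 FPKM in KO-labelled libraries, against 9.40, 15.1 and 121 FPKM in WT-labelled libraries. WT 3 was far above the other 5 libraries, which lay within 9.40 to 22.02 FPKM. The means were 17.9 ± 3.89 FPKM and 48.6 ± 63.0 FPKM (SD, n = 3 each), a log2 fold change of -0.55 (SE 0.80, 95% interval -2.41 to 1.30, exact permutation p = 0.9). Without WT 3 the direction turned, with a log2 fold change of 0.53 (unadjusted p = 0.0557, limma adjusted p = 1.00). The value in WT 3 rested on about 4649 fragments, so counting error was about 1.47% of it.

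The genes most like Nos2 were Fgf15, the ileal hormone gene induced by bile acids (0.42), Cfd, which encodes complement factor D (0.58), and the cytochrome P450 gene Cyp2e1 (0.60). Fgf15 was listed at 0.973, 0.264 and 0.139 FPKM in KO-labelled libraries, against 0.595, 0.183 and 7.70 FPKM in WT-labelled libraries. Fabp6 was also highest in WT 3, at 9.79 FPKM, where the other 5 libraries were at 0.316 to 2.41 FPKM, and so was Slc10a2, at 1.94 FPKM. The distal ileal genes Fgf15, Fabp6 and Slc10a2 thus had their highest level in the library with the highest Nos2. The basolateral bile acid transporter genes did not. Slc51a was highest in KO 3 (136 FPKM, against 124 FPKM in WT 3) and Slc51b in WT 2 (88.9 FPKM, against 87.0 FPKM in WT 3). The part of position along the intestine in the Nos2 value was not tested. Gata4 in WT 3 (43.0 FPKM) lay within the range of the other libraries.

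Neutrophils and macrophages can also express Nos2, and the summed level of neither marker list was highest in WT 3. The summed level of 9 neutrophil markers was 10.6, 10.6 and 12.5 FPKM in KO-labelled libraries, against 16.2, 9.32 and 12.4 FPKM in WT-labelled libraries, with Mpo and Elane listed at 0 throughout. The summed level of 10 macrophage markers was 326, 263 and 222 FPKM in KO-labelled libraries, against 267, 213 and 203 FPKM in WT-labelled libraries. WT 3 was the lowest of the 6 in the macrophage sum. Only 3 of the 9 neutrophil markers averaged 1 FPKM or more. The part of either cell type in the Nos2 value was not tested.

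Nox1 (X chromosome, 134086421 to 134221956) was the least abundant member. It stood at 1.49, 1.44 and 1.95 FPKM in KO-labelled libraries, against 2.71, 1.87 and 0.657 FPKM in WT-labelled libraries. The WT libraries held both the highest and the lowest value, and the KO libraries lay between. The means were 1.63 ± 0.282 FPKM and 1.75 ± 1.03 FPKM (SD, n = 3 each), with a log2 fold change of 0.01 (SE 0.28, 95% interval -0.64 to 0.65, exact permutation p = 1.0). These values rest on about 14.9 to 67.6 fragments, which gives a counting error of 25.9% at the lowest and 12.2% at the highest. Among the female libraries KO 2 and KO 3 stood at 1.44 and 1.95 FPKM, against 0.657 FPKM in WT 3. Among the male libraries KO 1 stood at 1.49 FPKM, against 2.71 and 1.87 FPKM in WT 1 and WT 2. The order of the groups was thus opposite in the 2 sexes, as it was for 39.9% of all tested genes, and the difference was not tested. With a sex term the log2 fold change was 0.15.

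Its activator Noxa1 varied in the same order as Nox1 among the WT libraries. It stood at 7.45, 10.4 and 12.0 FPKM in KO-labelled libraries, against 15.95, 11.4 and 6.16 FPKM in WT-labelled libraries. WT 1 was highest and WT 3 lowest for both genes. The genes most like Nox1 were Snrpf, a core spliceosomal protein gene (0.06), Nuf2, a kinetochore gene of dividing cells (0.06), and Tmed1, a gene of the secretory pathway (0.06).

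Noxo1 (chromosome 17, 24696234 to 24700529) was the steadiest member. It stood at 14.2, 13.1 and 18.7 FPKM in KO-labelled libraries, against 15.6, 17.4 and 13.5 FPKM in WT-labelled libraries. The groups interleaved, and the highest library was 1.42 times the lowest. The means were 15.3 ± 2.95 FPKM and 15.5 ± 1.93 FPKM (SD, n = 3 each), with a log2 fold change of -0.03 (SE 0.15, 95% interval -0.38 to 0.32, exact permutation p = 0.9). Its annotated exons share 2122 bases with those of Tbl3 on the opposite strand, which was listed at 6.21 to 10.8 FPKM. The sources used here do not say whether counting used strand, so the level of Noxo1, and its ratio to Nox1, is uncertain. Nox1 shares 399 exonic bases with Cstf2, and Duoxa2 shares 682 with Duoxa1, each on the opposite strand. Cstf2 was listed at 11.1 to 14.9 FPKM, above Nox1 in every library. It was highest in WT 1 and lowest in WT 3, as Nox1 was. The level of Nox1 and its pattern over the libraries are thus uncertain for the same reason. Duoxa1, the maturation factor of DUOX1, was listed at 0 in all 6 libraries.

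Gpx2 (chromosome 12, 76792333 to 76795554) was among the most abundant transcripts, within the top 1.5% of rows in every library. It stood at 191, 370 and 446 FPKM in KO-labelled libraries, against 374, 434 and 256 FPKM in WT-labelled libraries. KO 1 and WT 3 were low and the other 4 libraries were close to each other. The means were 336 ± 131 FPKM and 355 ± 91.0 FPKM (SD, n = 3 each), with a log2 fold change of -0.13 (SE 0.33, 95% interval -0.90 to 0.63, exact permutation p = 0.8). The direction turned without KO 1 (0.23) and without WT 2 (0.03).

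The libraries low in Gpx2, KO 1 and WT 3, had the lowest mean of the crypt list and the highest mean of the enterocyte list, though not every gene of either list. The mean log2(FPKM + 1) of 6 crypt base and progenitor genes was 4.65, 5.06 and 5.18 in KO-labelled libraries, against 4.99, 4.90 and 4.52 in WT-labelled libraries. The mean over 8 ileal enterocyte genes was 6.21, 5.85 and 5.78 in KO-labelled libraries, against 5.81, 6.07 and 6.87 in WT-labelled libraries. Olfm4, a crypt gene, stood at 223 FPKM in KO 1 and 307 FPKM in WT 3, where the other 4 libraries were at 437 to 563 FPKM. Mki67, Top2a and Smoc2 were likewise lowest in KO 1 and WT 3, but the stem cell gene Lgr5 was highest in KO 1 (3.40 FPKM), and Ascl2 in KO 1 (4.15 FPKM) exceeded all WT values. For Lgr5 and Ascl2, 2 of the 6 crypt genes, all KO values lay above all WT values, as in 5.77% of tested genes. Of the 6 crypt genes, 0 passed the threshold. Of the enterocyte genes, Fabp2, Alpi and Cubn were highest in KO 1 and WT 3, while Slc51a and Slc51b were lowest in KO 1. Noxa1 was lowest in KO 1 and WT 3. GPX2 is known as an enzyme of crypt cells, and the part of crypt content in its level was not tested. The genes most like Gpx2 were Steap1, a membrane reductase family gene (0.08), the aldo-keto reductase gene Akr1c13 (0.12) and Cenpp, a centromere protein gene (0.14).

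The RefSeq start of Nox1 lies inside its longer GENCODE span. The windows before the RefSeq starts of Nox1 and Gpx2 are shown because both genes were lowest, or next to lowest, in WT 3, and because they hold words of the intestinal CDX and GATA factors (build GRCm38.p6, 5′ to 3′ on the strand of the gene, matches in capitals).
Nox1 chrX:134111855-134112104 (minus strand): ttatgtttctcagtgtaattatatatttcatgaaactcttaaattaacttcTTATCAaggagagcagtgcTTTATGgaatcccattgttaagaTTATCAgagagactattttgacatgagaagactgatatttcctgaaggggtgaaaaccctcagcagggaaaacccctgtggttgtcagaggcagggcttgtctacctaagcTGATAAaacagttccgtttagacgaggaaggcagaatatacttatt
Gpx2 chr12:76795555-76795804 (minus strand): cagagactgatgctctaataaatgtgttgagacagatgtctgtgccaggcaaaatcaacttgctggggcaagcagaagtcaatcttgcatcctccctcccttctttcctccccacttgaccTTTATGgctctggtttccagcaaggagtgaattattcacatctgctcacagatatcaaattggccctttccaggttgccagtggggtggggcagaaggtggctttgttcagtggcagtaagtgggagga

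TTTATG was found in the windows of Nox1 and Gpx2 and in 10.8% of all windows. TGATAA was found in 7.94% of all windows. It was found 3 times in that of Nox1, counting both strands, and 3 or more times in 0.0700% of windows. The share for 3 or more matches was worked out for TGATAA alone, at the number of matches seen in Nox1. It is therefore no test of whether the word is unusually frequent there, and nothing is concluded from it. No matches overlapped. Cdx2, an intestinal transcription factor gene, stood at 65.7, 78.1 and 87.5 FPKM in KO-labelled libraries, against 78.0, 74.0 and 96.9 FPKM in WT-labelled libraries. Gata6 was between 24.0 and 31.3 FPKM in all 6 libraries.

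Of the 6 members, 5 varied more between animals of the same group than most genes. The within-group SD on the log2(FPKM + 1) scale was 1.36 for Nos2, 0.65 for Duoxa2, 0.57 for Duox2, 0.53 for Gpx2 and 0.43 for Nox1, where the median over tested genes was 0.16. Each of these 5 genes was among the most variable 5% of genes, and Noxo1, with an SD of 0.22, was at the 70.3 percentile. For Duoxa2 the SD was 0.19 in the libraries labelled KO and 0.90 in WT-labelled libraries, and for Nos2 it was 0.30 in the libraries labelled KO and 1.90 in WT-labelled libraries. The SD was smaller in the libraries labelled KO for 4 of 6 members and for 54.3% of all tested genes.

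**Figure D3:**
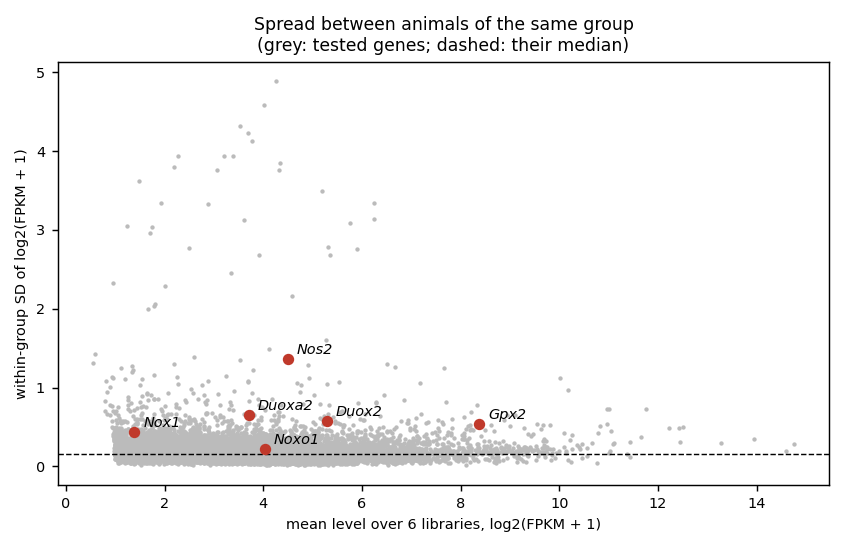
Within-group SD of log2(FPKM + 1) against the mean level over the 6 libraries for the 12695 tested genes (grey), with the 6 members in red and a dashed line at the median of 0.16. Nos2, at 1.36, lies highest of the members, and Noxo1, at 0.22, lies closest to the median.

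**Figure D4:**
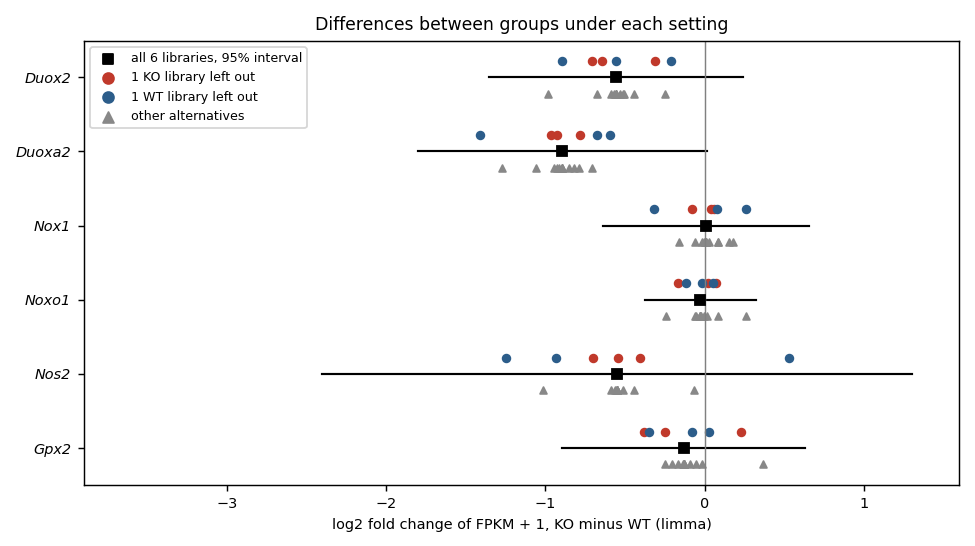
Log2 fold change of each member, KO minus WT, with all 6 libraries (square, 95% interval), with 1 library left out (red for KO, blue for WT) and under the other alternatives (grey triangles). The values for Duox2 and Duoxa2 stayed below 0, while the value for Nos2 without WT 3 was 0.53.

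Of 6 catalytic subunits of the NADPH oxidase family, 3 were tested (Duox2, Nox1 and Cybb) and 0 passed. Cybb, the phagocyte enzyme, stood at 12.5, 12.6 and 8.65 FPKM in KO-labelled libraries, against 9.93, 7.86 and 6.90 FPKM in WT-labelled libraries (log2 fold change 0.40, SE 0.18). KO 1 and KO 2 were highest. Duox1 was listed between 0.0964 and 0.312 FPKM, Nox4 between 0.225 and 0.416 FPKM, and Nox3 at 0 in every library. Duox2 was therefore the DUOX gene detected in this tissue at more than 1 FPKM.

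Of 9 partner subunits tested, Duoxa2 and Noxo1 among them, 0 passed, with 4 estimates above 0 and 5 below (median log2 fold change -0.03). Ncf4, a cytosolic subunit of the phagocyte enzyme, stood at 4.60, 6.76 and 4.54 FPKM in KO-labelled libraries, against 4.27, 3.84 and 2.79 FPKM in WT-labelled libraries (0.44, SE 0.18, limma adjusted p = 0.998). Its groups did not overlap, with all KO values above all WT values, as they were for 5.77% of tested genes. The GTPase gene Rac2 stood at 12.96, 14.4 and 6.39 FPKM in KO-labelled libraries, against 7.998, 6.47 and 7.13 FPKM in WT-labelled libraries. KO 1 and KO 2, where Cybb and Rac2 were highest, were the libraries with high B cell markers, whose part in these values was not tested. Cyba, the membrane partner of NOX1 and CYBB, was between 57.6 and 72.0 FPKM.

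Nitric oxide and arginine genes, Nos2 included, gave 0 of 12 tested past the threshold, with 5 estimates above 0 and 7 below (median log2 fold change -0.03). Gchfr, a regulator of the enzyme that makes the cofactor of nitric oxide synthases, stood at 16.9, 17.7 and 13.7 FPKM in KO-labelled libraries, against 16.4, 19.0 and 28.1 FPKM in WT-labelled libraries. It was highest in WT 3, as Nos2 was. The arginine transporter gene Slc7a1 had a log2 fold change of 0.25 (SE 0.20). Nos1 and Nos3, the neuronal and endothelial synthases, averaged under 1.3 FPKM. Arg2, an arginase of the same substrate, was the most abundant at 178 to 243 FPKM.

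Peroxide-removing genes, Gpx2 included, gave 0 of 19 tested past the threshold, with 5 estimates above 0 and 14 below (median log2 fold change -0.09). Prdx5, a peroxiredoxin, stood at 125, 114 and 106 FPKM in KO-labelled libraries, against 137, 138 and 133 FPKM in WT-labelled libraries (-0.24, SE 0.10, limma adjusted p = 0.998). Gpx4, which reduces lipid peroxides, had a log2 fold change of -0.25. Of the superoxide dismutases, which turn superoxide into hydrogen peroxide, 0 of 3 passed. Sod1 stood at 281, 301 and 310 FPKM in KO-labelled libraries, against 371, 352 and 337 FPKM in WT-labelled libraries (-0.25, SE 0.11). Sod2, the mitochondrial form, had a log2 fold change of 0.06. The KO values of Prdx5 and Sod1 were all below the WT values, as they were for 2.6% of tested genes.

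Genes of the NRF2 pathway, the response to oxidants, gave 0 of 13 tested past the threshold, with 3 estimates above 0 and 10 below (median log2 fold change -0.09). Osgin1 stood at 20.2, 16.4 and 15.3 FPKM in KO-labelled libraries, against 20.4, 23.5 and 37.6 FPKM in WT-labelled libraries (-0.59, SE 0.22, unadjusted p = 0.0281, limma adjusted p = 0.998). It was highest in WT 3. The glutathione transferase gene Gsta3 had a log2 fold change of -0.40. GPX2 contains selenocysteine, and a list of selenoprotein genes and their synthesis factors gave 0 of 9 past the threshold (median 0.04). Its smallest p-values were those of Pstk, a kinase gene in selenocysteine synthesis (0.32, SE 0.27), and Secisbp2, whose product binds selenoprotein mRNA (0.09, SE 0.10).

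**Figure D5:**
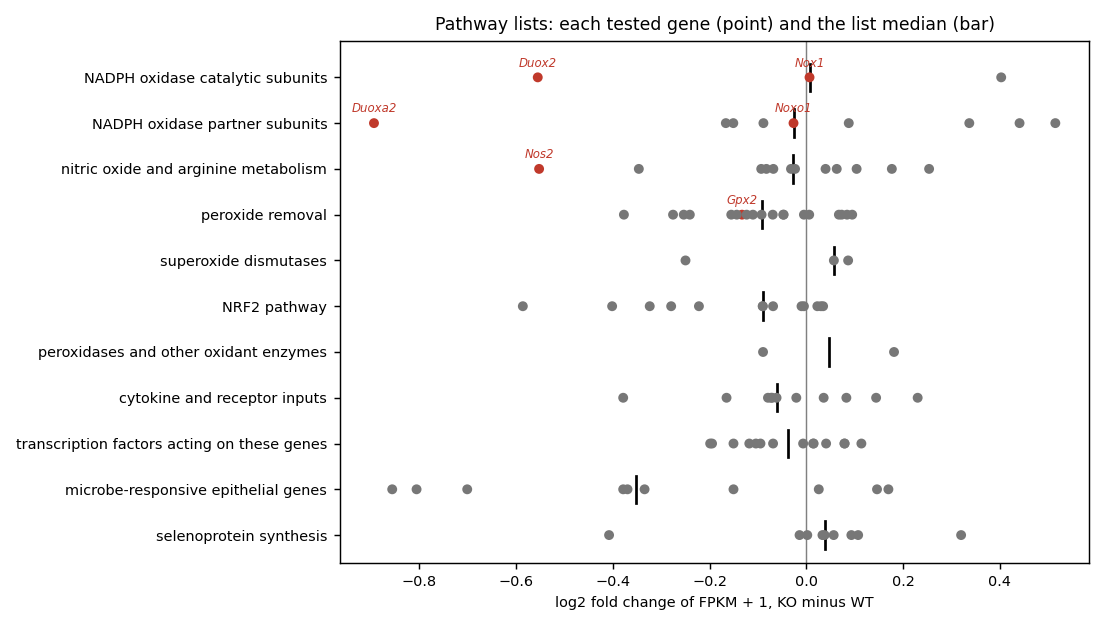
Log2 fold change of FPKM + 1, KO minus WT, of every tested gene in each pathway list (points, members in red) and the list median (bar). Duoxa2 (-0.89) lies lowest of all points, and the microbe-responsive epithelial list has the lowest median (-0.35).

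Il17a, Il17f, Il17c, Il22, Ifng and Il6 were listed at no more than 0.233 FPKM in any library, while Il18 was at 18.9 to 42.6 FPKM, Il1b at 1.55 to 2.63 FPKM and Tnf at 0.638 to 1.32 FPKM. Il17a was listed at 0.201, 0 and 0 FPKM in KO-labelled libraries, against 0.0983, 0 and 0 FPKM in WT-labelled libraries, and Il22 was likewise listed above 0 in KO 1 and WT 1 alone. Of 11 tested genes among cytokine and receptor inputs, 0 passed, with 4 estimates above 0 and 7 below (median log2 fold change -0.06). The receptor gene Il22ra1 stood at 40.7, 27.8 and 25.6 FPKM in KO-labelled libraries, against 24.8, 28.003 and 47.5 FPKM in WT-labelled libraries. Ifngr1, an interferon gamma receptor subunit, was at 78.3, 73.5 and 70.2 FPKM in KO-labelled libraries, against 78.6, 79.9 and 91.0 FPKM in WT-labelled libraries (log2 fold change -0.16, SE 0.10). All KO values of Ifngr1 lay below the WT values, as they did for 2.6% of tested genes. Of 14 transcription factors, 0 passed (median -0.04). Stat3, which carries interleukin-22 signals, had a log2 fold change of -0.20 and Rela, a subunit of NF-kB, one of -0.09.

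Microbe-responsive epithelial genes gave 0 of 10 tested past the threshold, with 3 estimates above 0 and 7 below (median log2 fold change -0.35). Reg3b and Reg3g differed by -0.86 (SE 0.37) and by -0.81 (SE 0.36) on the log2 scale, and Ubd, a ubiquitin-like modifier gene by -0.70. Of other oxidant enzymes, 0 of 2 tested passed. Xdh, xanthine oxidoreductase, was at 123 to 160 FPKM, a higher level than Duox2 in every library. Ido1, the tryptophan-degrading enzyme gene, had a log2 fold change of 0.18 (SE 0.27). Mpo and Epx, the peroxidases of neutrophils and eosinophils, were listed at 0 in all 6 libraries.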

How the data were processed

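RNA sequencing libraries of 6 mice were analysed. The authors deposited 1 table of FPKM values with 1 column per library, and the submitters' processing notes list, with no roles, Cufflinks and Cuffnorm, STAR, Trimmomatic, FastQC, bedtools and SAMtools, with builds GRCm38 and mm10. The sources used here give no versions, scaling between libraries or strand use. Directional libraries were made with a NEBNext Ultra II kit, per the labels' protocols. The labels do not say that same-numbered mice were paired.

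The test covered genes averaging 1 FPKM or more and used log2(FPKM + 1), which understates changes of low genes, with limma (two-sided, intensity trend) and Benjamini-Hochberg adjustment over all tested genes at 0.05. The test was checked for false calls and bias on simulated data with planted differences and independent normal noise. That check does not cover a value set by 1 outlying library. Nor does it show what size of difference could be found in the members. Depth was estimated from genes with 1 annotated transcript, where 78.3% to 82.6% of low values fell within 0.1 of a whole fragment, against a median of 8.20% to 11.7% at other assumed depths, with transcript lengths shortened by 200 bases. Fragment numbers behind a value are estimates, and intervals for them cover counting error only. Libraries correlated between 0.966 and 0.982 with each other (Spearman's rho over genes; genes are no replicates), so no library was a copy of another.

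The members and lists were chosen with earlier results of these data known. Named genes are the 6 members, list genes by role and those of smallest p, and the 3 genes most like each member that spans at least 1 on the log2 scale, leaving out predicted loci, receptor segments and Y-linked genes. Of 226 list entries, 223 were found, 6 of them under an older symbol. Promoter windows and their sequences are from RefSeq (GRCm38.p6), with 5 members matched, and gene positions from GENCODE M21 (GRCm38). Alternatives were other pseudocounts, filters, scalings and variance models, a sex term, the replicate block, each library left out, and, chosen after seeing the data, the KO group reduced to replicate 3. Software was Python 3.11.15 with scipy 1.17.1, matplotlib 3.10.9, numpy 2.4.6 and pandas 2.3.3, and limma 3.58.1 under R 4.3.3.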

Additional observations from a re-analysis of the deposited data

Results flagged for a closer look

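Of the 6 members, 3 differed between the groups in opposite directions in the 2 sexes, in every library, and are given for that reason. The pattern was common, holding for 39.9% of the 12695 tested genes, so nothing about the members is read from it. The sexes were read from Xist, with KO 2 and KO 3 against WT 3 among females and KO 1 against WT 1 and WT 2 among males. On the log2(FPKM + 1) scale the difference, KO minus WT, was 0.69 in females and -0.39 in males for Nox1, 0.67 in females and -1.08 in males for Gpx2, and -2.86 in females and 0.83 in males for Nos2. Each difference rests on a single library on one side, WT 3 in females and KO 1 in males, and the difference between the sexes was not tested. KO 1 and WT 3 also had the lowest means of the crypt list (4.65 and 4.52) and the highest of the enterocyte list (6.21 and 6.87). Sex and this likeness of KO 1 and WT 3 cannot be told apart here.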

How the results depend on the processing

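The log2 fold changes of Duox2 and Duoxa2 were below 0 under all 19 alternatives, from -0.98 to -0.21 and from -1.41 to -0.60, and no member passed the adjusted threshold under any alternative run (lowest adjusted p by limma 0.0909, for Duoxa2 with array weights). With 1 library left out, Duox2 ranged from -0.90 to -0.21, Duoxa2 from -1.41 to -0.60, Nox1 from -0.32 to 0.26, Noxo1 from -0.17 to 0.070, Nos2 from -1.25 to 0.53 and Gpx2 from -0.38 to 0.23. Nox1 turned to -0.015 with a pseudocount of 5, -0.0057 with median-of-ratios scaling, -0.061 under quantile normalization and -0.16 with array weights. Noxo1 turned to 0.082 after rescaling to an equal sum, 0.014 when scaled to epithelial markers and 0.26 with KO reduced to replicate 3, where Gpx2 turned to 0.36. Rescaling to an equal sum moved the median of all genes to 0.13. The causes were not tested. Nox1 could not be tested with a filter of 5 FPKM. The 0 genes past the threshold became 2 with a pseudocount of 0.1, 2 with one of 5, 2 after rescaling to an equal sum, 3 when scaled to epithelial markers, 24 with array weights, 4 with KO reduced to replicate 3 and 0 to 41 with 1 library left out (41 without KO 3). With the replicate number as a block it was 1, and Duox2 and Duoxa2 kept log2 fold changes of -0.56 and -0.89 (unadjusted p = 0.0270 and 0.0181, limma adjusted p = 0.999). The numbers share no stated pairing, and deviations of same-numbered libraries correlated at -0.13, 0.03 and -0.11 across genes. Those of differently numbered libraries correlated at -0.02 to 0.14. Deviations from means of 3 libraries constrain these correlations, so they cannot settle whether the animals were paired. Depth limits Nox1 most.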

Other observations

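Marker lists of other cells gave the following summed levels, with 0 genes past the threshold in each. The 6 Paneth cell genes summed to 7416 to 11827 FPKM in KO-labelled libraries and 8261 to 14610 FPKM in WT-labelled libraries, and the 7 goblet cell genes to 5115 to 6691 FPKM in KO and 5472 to 6603 FPKM in WT. The 9 epithelial genes summed to 4071 to 5143 FPKM in KO and 4379 to 4728 FPKM in WT. The colonic list summed to 175 to 240 FPKM in KO and 180 to 205 FPKM in WT, mostly from Car4 and Slc26a3, with Hoxb13 listed at 0. The 6 proximal intestinal genes summed to 1915 to 2468 FPKM in KO and 2000 to 2698 FPKM in WT. The 5 T cell genes summed to 19.1 to 38.6 FPKM in KO and 24.3 to 27.3 FPKM in WT, and the 5 plasma cell genes to 1011 to 1091 FPKM in KO and 767 to 1382 FPKM in WT. The 5 smooth muscle genes summed to 495 to 638 FPKM in KO and 581 to 784 FPKM in WT.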
